A study of Mus musculus with 15 samples.

Results

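The genes described here are 54 regulators and components of the cell cycle, taken by name from gene tables of 18078 genes in 15 RNA-seq libraries of mouse lung fibroblast cultures. They were grouped by the phase in which their products act: 17 at the entry into S phase (G1/S), 10 in DNA synthesis (S), 23 in G2 and mitosis (G2/M), and 4 inhibitors of cyclin-dependent kinases. All 54 were in the tables, and 53 passed the filter on low values. The cultures were primary lung fibroblasts from wild-type BALB/cJ mice, collected 20 hours after stimulation. The 5 groups of 3 libraries were recombinant IL-33 with IL-13 and IL-17A (the triple combination), IL-33 with IL-13, IL-33 with IL-17A, IL-33 alone, and untreated cells. No source used here gives the cytokine doses, the passage number, or the age and sex of the mice. IL-33 is an alarmin of barrier tissues, IL-13 a type 2 cytokine and IL-17A a type 3 cytokine. The comparisons ask how each cytokine and combination changed these genes in the fibroblast cultures.

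A cell enters S phase when D-type and E-type cyclins with their kinases phosphorylate the retinoblastoma proteins, which frees E2F transcription factors to switch on the genes of replication licensing and nucleotide supply. The genes of G2 and mitosis follow later, and many are held down in resting cells by the DREAM complex, which binds promoters through E2F sites and the CHR element. CIP/KIP and INK4 inhibitors oppose the kinases, and p21, encoded by Cdkn1a, is also a direct target of p53. Lung fibroblasts are largely quiescent in the healthy adult lung and divide after injury and in culture.

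The promoter windows below are those of the pair of members per phase with the lowest adjusted p when IL-13 was added to IL-33, among members with a RefSeq window (Aurkb had none), and that of Cdkn1a. They are shown because the phases differ in how often their windows hold these elements. Each window is RefSeq sequence of the GRCm38.p6 build, from 250 bases before to 50 bases after the annotated start of transcription, read 5′ to 3′ on the gene's strand. Capitals mark E2F sites (TTTCCCGC, TTTGGCGC, TTTCGCGC or TTTGCCGC), CHR elements (TTTGAA or TTCGAA) and CCAAT boxes (CCAAT), each searched on both strands. The G1/S genes Mcm5 and Mcm3 encode subunits of the MCM helicase, the S genes Rrm2 and Dut make precursors of DNA, and the G2/M genes Cdc20 and Cdk1 drive mitosis.
Mcm5, chr8:75109259-75109558, + strand: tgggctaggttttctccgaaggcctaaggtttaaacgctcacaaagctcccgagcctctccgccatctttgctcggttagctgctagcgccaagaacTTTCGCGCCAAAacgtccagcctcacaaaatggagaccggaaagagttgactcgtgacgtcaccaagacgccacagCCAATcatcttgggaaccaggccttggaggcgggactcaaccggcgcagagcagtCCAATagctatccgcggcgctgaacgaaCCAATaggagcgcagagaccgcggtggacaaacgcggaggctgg
Mcm3, chr1:20820263-20820562, - strand: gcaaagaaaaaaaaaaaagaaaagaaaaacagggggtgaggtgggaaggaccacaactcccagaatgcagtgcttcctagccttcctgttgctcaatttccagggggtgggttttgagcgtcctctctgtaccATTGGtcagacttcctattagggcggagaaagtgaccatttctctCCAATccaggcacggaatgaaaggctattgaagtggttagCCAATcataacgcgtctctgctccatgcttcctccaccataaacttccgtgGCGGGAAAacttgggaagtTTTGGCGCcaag
Rrm2, chr12:24708004-24708303, + strand: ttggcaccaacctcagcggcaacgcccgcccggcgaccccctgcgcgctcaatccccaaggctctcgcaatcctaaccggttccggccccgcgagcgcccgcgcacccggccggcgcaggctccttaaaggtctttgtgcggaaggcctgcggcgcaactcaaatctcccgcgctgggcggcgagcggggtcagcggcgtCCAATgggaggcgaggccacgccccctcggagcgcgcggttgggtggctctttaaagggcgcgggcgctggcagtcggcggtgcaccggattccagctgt
Dut, chr2:125247265-125247564, + strand: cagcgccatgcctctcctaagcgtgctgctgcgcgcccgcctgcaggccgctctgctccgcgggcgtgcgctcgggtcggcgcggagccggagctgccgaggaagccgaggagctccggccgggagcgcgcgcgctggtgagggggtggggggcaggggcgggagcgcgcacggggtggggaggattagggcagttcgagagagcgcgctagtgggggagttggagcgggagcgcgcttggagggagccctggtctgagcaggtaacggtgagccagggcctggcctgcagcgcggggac
Cdc20, chr4:118437294-118437593, - strand: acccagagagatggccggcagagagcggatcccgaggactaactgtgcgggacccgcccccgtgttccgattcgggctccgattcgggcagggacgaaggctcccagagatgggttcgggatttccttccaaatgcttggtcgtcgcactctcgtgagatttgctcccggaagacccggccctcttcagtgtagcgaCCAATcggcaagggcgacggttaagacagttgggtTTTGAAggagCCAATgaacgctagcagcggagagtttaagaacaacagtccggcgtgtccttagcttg
Cdk1, chr10:69352863-69353162, - strand: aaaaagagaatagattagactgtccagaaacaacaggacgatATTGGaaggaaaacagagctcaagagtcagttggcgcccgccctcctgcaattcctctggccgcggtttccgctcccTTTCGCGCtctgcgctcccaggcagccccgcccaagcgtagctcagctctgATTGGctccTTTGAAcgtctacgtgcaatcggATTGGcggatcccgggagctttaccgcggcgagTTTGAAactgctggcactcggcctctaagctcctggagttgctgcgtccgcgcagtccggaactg
Cdkn1a, chr17:29090729-29091028, + strand: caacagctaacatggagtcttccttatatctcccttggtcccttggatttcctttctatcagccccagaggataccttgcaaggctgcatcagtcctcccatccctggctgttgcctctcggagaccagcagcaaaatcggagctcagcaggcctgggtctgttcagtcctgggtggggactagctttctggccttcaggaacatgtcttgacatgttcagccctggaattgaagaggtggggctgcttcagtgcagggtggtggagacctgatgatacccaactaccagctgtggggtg

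The Mcm5 window held 2 E2F sites that overlap, and the Mcm3 window held 2 that do not. In the Cdc20 window a CHR element lay between 2 CCAAT boxes, and the Cdk1 window held 1 E2F site, 2 CHR elements and 3 CCAAT boxes. Among the S genes, the Rrm2 window held 1 CCAAT box and the Dut window none of the letters searched, as did the Cdkn1a window. The Dut start annotated in RefSeq lay 325 bases from the start of the gene in the deposited tables, so its window may not be the start used in these cells. The same limit holds for Mcm7 (539 bases), E2f1 (466 bases) and Cdc6 (350 bases). The windows of Mcm7 and Cdc6 are among the G1/S windows counted below with an E2F site.

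Windows were found for 45 of the 54 members. The members without an entry were Ccnd1, Ccnd2, Ccne2, Gins2, Mcm4, Ccna2, Aurkb, Kif20a and Tpx2. CHR elements were present in 15 of 19 G2/M windows (78.9%), 4 of 12 G1/S windows (33.3%) and 1 of 10 S windows (10%), against 14.3% of 12517 windows of all genes in the tables. E2F sites were present in 6 of 12 G1/S windows (50%), 1 of 10 S windows (10%) and 1 of 19 G2/M windows (5.26%), against 3.88% of all windows. CCAAT boxes were in 16 of 19 G2/M windows (84.2%), 7 of 12 G1/S windows (58.3%) and 6 of 10 S windows (60%), against 38.4% of all windows. A match describes the letters of the window and does not show that a factor binds there.

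**Figure D1:**
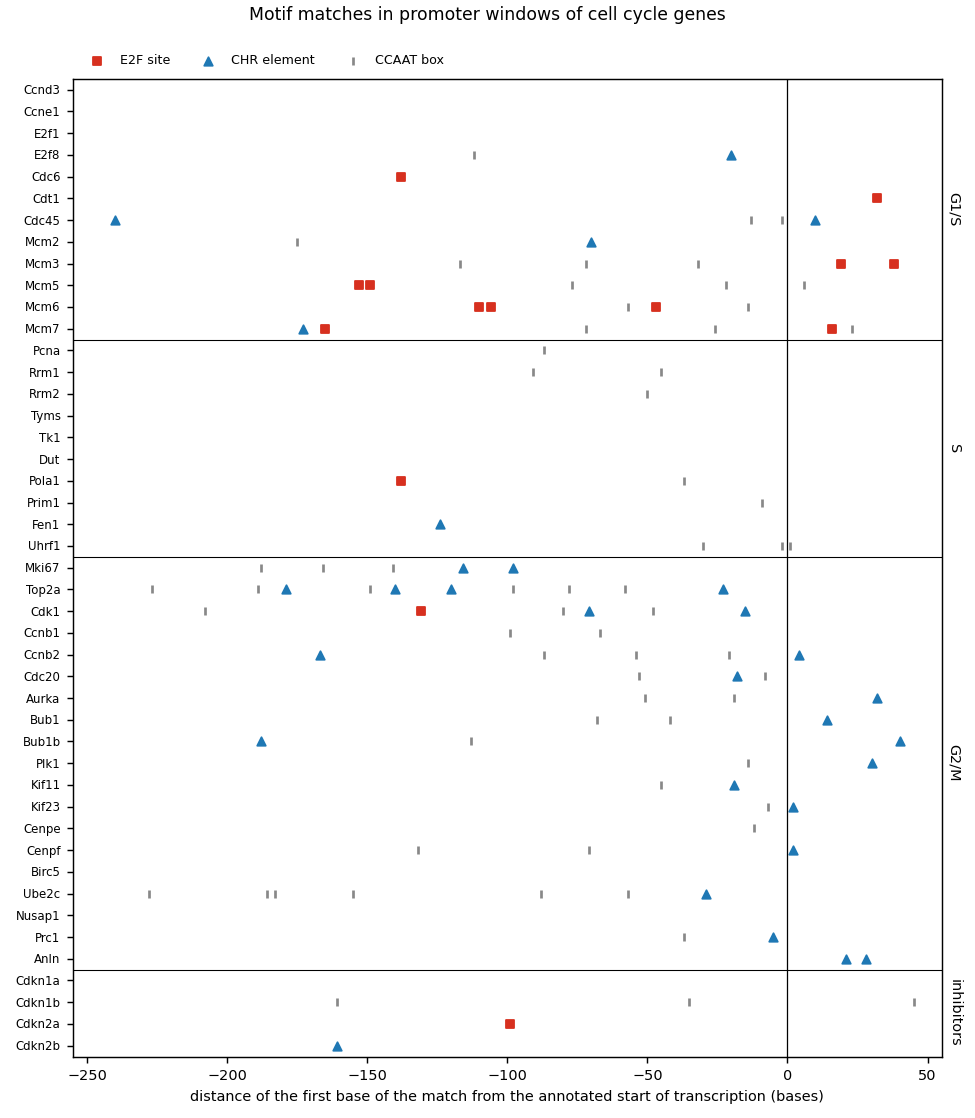
Matches to E2F sites (red squares), CHR elements (blue triangles) and CCAAT boxes (grey ticks) in the promoter windows of 45 members, grouped by phase, against the distance of the match from the annotated start of transcription in bases. CHR elements were found in 15 of 19 G2/M windows and E2F sites in 6 of 12 G1/S windows.

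The tables gave TPM, a transcript level scaled for gene length and library depth, and the reads behind them came to between 10555000 and 15123000 per library when recovered from the smallest steps of the values. The TPM were made over the whole gene span, introns included, so levels of members are compared between genes only after division by exonic length. Marker levels and sums below are TPM over the gene span, so their order among genes also depends on span. The span of a gene is the same in every library. A long span lowers its TPM, however, and changes on the log2(TPM + 1) scale used here are then understated. In these cultures the fibroblast markers were high (Col1a1 averaged 4658 TPM), and so were macrophage markers: 12 of 13 averaged at least 1 TPM, led by Lyz2 at 9363 TPM. The summed macrophage markers were 15792 to 16465 TPM with the triple combination, 16184 to 16441 TPM with IL-33 and IL-13, 16847 to 18057 TPM with IL-33 and IL-17A, 16975 to 17252 TPM with IL-33 and 17463 to 17758 TPM in untreated cells. The summed fibroblast markers were 10402 to 11007 TPM with the triple combination, 11956 to 12321 TPM with IL-33 and IL-13, 12431 to 13949 TPM with IL-33 and IL-17A, 13796 to 14659 TPM with IL-33 and 15537 to 16952 TPM in untreated cells. The summed smooth muscle and mesothelial markers (7 genes, led by Acta2) were 565 to 596 TPM with the triple combination, 1022 to 1054 TPM with IL-33 and IL-13, 874 to 996 TPM with IL-33 and IL-17A, 1854 to 1911 TPM with IL-33 and 2759 to 2873 TPM in untreated cells. The summed granulocyte and mast cell markers (4 genes, led by Mcpt8) were 246 to 304 TPM with the triple combination, 208 to 218 TPM with IL-33 and IL-13, 222 to 239 TPM with IL-33 and IL-17A, 174 to 193 TPM with IL-33 and 102 to 108 TPM in untreated cells. The summed epithelial markers (4 genes) were low, at 5.97 to 8.32 TPM with the triple combination, 4.65 to 7.52 TPM with IL-33 and IL-13, 2.36 to 2.83 TPM with IL-33 and IL-17A, 1.81 to 2.27 TPM with IL-33 and 1.61 to 3.19 TPM in untreated cells. Of the 4 granulocyte and mast cell genes, only Mcpt8 (122 TPM) and S100a8 (80.4 TPM) averaged at least 1 TPM. The listed markers Cpa3, Kit, Ly6g, Mcpt4 and S100a9 of these cells were not among the genes given. Nor were the epithelial markers Nkx2-1, Scgb1a1, Sftpb and Sftpc. The part of the marker differences between groups in the results was not tested. Of the endothelial markers analysed, the highest was Vwf at 4.24 TPM on average. Which cells the cell cycle RNA came from was not tested, and in bulk RNA fewer cycling cells and less RNA per cycling cell cannot be told apart. Nothing in the labels says that the 3 libraries of a group came from separate cultures or animals, so p-values measure the spread between libraries, which may be technical.

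A set of 6 libraries stood apart. Mitochondrial transcripts made up 3.50% to 3.87% of their TPM, against 4.77% to 6.13% in the other 9. The set holds all 3 libraries of IL-33 with IL-13, replicate 1 of the triple combination, and replicates 2 and 3 of IL-33 with IL-17A, and no label names it. In a fit with both the group and the set as terms, 14 members were lower and 1 was higher inside the set (28.3% of those tested, against 16.3% of all genes). The 14 were mostly G2/M genes, among them Nusap1, Mki67, Bub1, Ccna2 and Cenpe, and the 1 was Cdkn2a. The counts of each comparison below that mixes the set are therefore given with the set term or in the libraries inside or outside the set as well. Shares of all genes below belong to the limma fit without the set term at adjusted p under 0.05, unless another setting is named. Of the changes given gene by gene, those of Ccnd1, Ccnd2, Ccne1, Gins2, Tk1, Uhrf1 and Cdkn2a with IL-13 added to IL-33 did not pass the test with the set term. The same held for Mcm5, Fen1 and Aurkb with IL-17A added to IL-33 and IL-13, for Ccne2, E2f8 and Cdt1 with IL-33 and IL-17A against untreated cells, and for E2f1 and Cdkn2b with IL-33 and IL-13 against untreated cells. For IL-33 with IL-13 against IL-33 alone or untreated cells, the set and the treatment cannot be told apart within these groups, and the set term rests on the other groups.

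**Figure D2:**
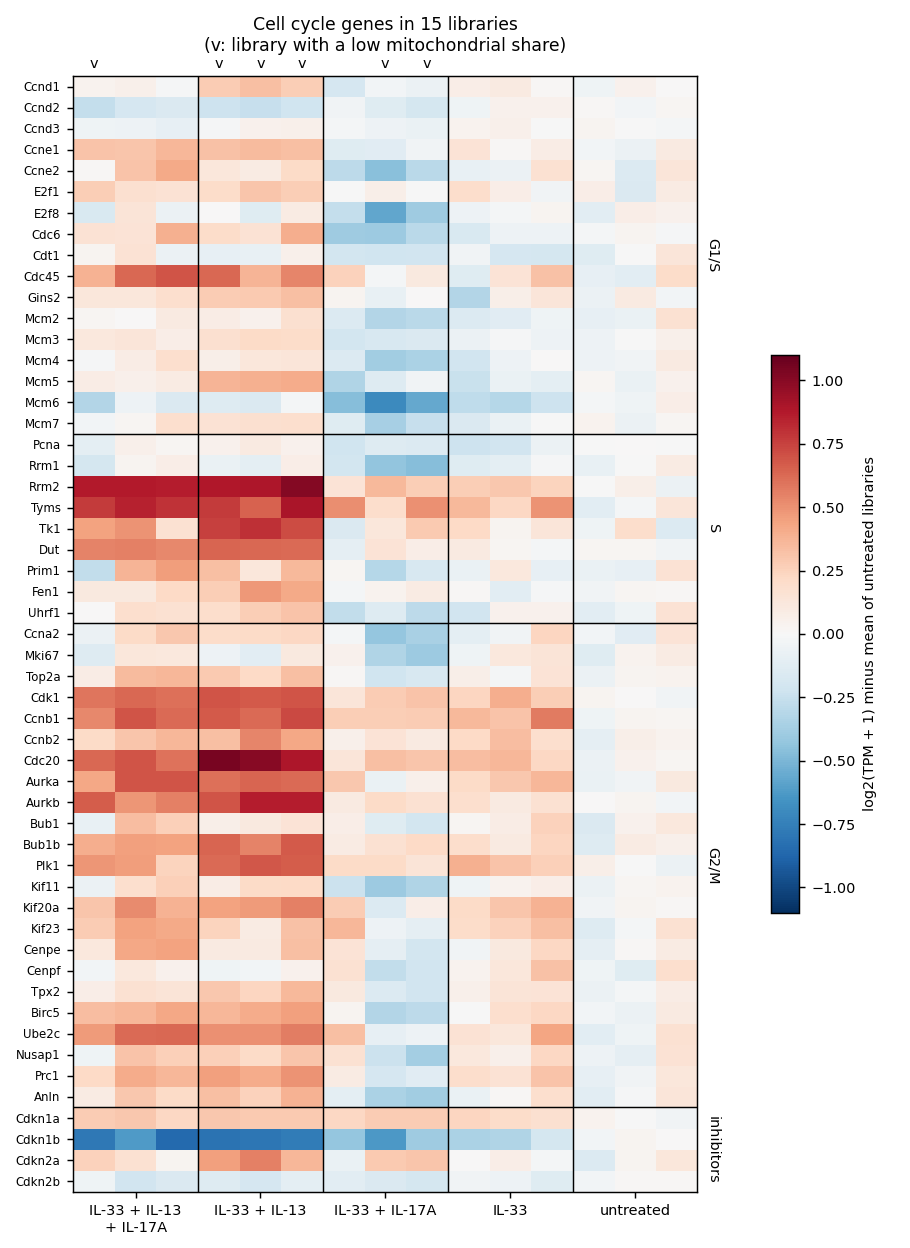
Level of each of the 53 tested members in the 15 libraries, as log2(TPM + 1) minus the mean of the 3 untreated libraries (colour scale), grouped by phase from top to bottom and by treatment from left to right. The triangles mark the 6 libraries with a low mitochondrial share. Cdc20, Rrm2, Tyms and Aurkb were highest in the groups with IL-13, and Cdkn1b was lowest there.

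Per exonic length, the most abundant members were Cdkn1a, with a mean of 538 TPM over all libraries, the D cyclins Ccnd1 (246 TPM) and Ccnd2 (214 TPM), and the replication clamp Pcna (181 TPM). The ribonucleotide reductase subunit Rrm2 followed at 143 TPM and Cdkn2a at 117 TPM. Among G2/M genes the highest were Ube2c, the ubiquitin carrier of the anaphase-promoting complex, at 84 TPM and Cdc20, its activator, at 82.6 TPM on this exonic scale. The lowest were Cenpf, Cdc6 and Pola1, at 6.7, 9.03 and 9.05 TPM per exonic length. Cycling transcripts were thus present in every group, untreated cells included. All values that follow are TPM over the gene span as deposited.

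The D cyclins, which bind Cdk4 and Cdk6 and start the passage through G1, differed from each other. Ccnd1 had 344, 348 and 331 TPM with the triple combination, 406, 419.9 and 403 TPM with IL-33 and IL-13, 295, 327 and 319.7 TPM with IL-33 and IL-17A, 352, 358 and 338 TPM with IL-33 and 324, 345 and 335 TPM in untreated cells. All 3 libraries of IL-33 with IL-13 lay above every other library, and the 3 of IL-33 with IL-17A lay below those of IL-33 alone. Ccnd1 was higher by 0.23 ± 0.04 (log2 scale ± SE; limma, adjusted p = 0.00186) with IL-13 added to IL-33. With IL-17A added, Ccnd1 was lower by 0.15 ± 0.04 on IL-33 (adjusted p = 0.0375) and by 0.26 ± 0.04 on IL-33 with IL-13 (adjusted p = 0.00225).

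Ccnd2 went the other way with IL-13. It had 201, 213 and 216 TPM with the triple combination, 206, 202 and 208 TPM with IL-33 and IL-13, 235, 220.2 and 211 TPM with IL-33 and IL-17A, 234, 249 and 249 TPM with IL-33 and 243, 236 and 246 TPM in untreated cells. Every library with IL-13 was below every library of IL-33 alone and of untreated cells. The fall was 0.25 ± 0.04 on the log2 scale with IL-13 added to IL-33 (adjusted p = 0.00139), and 0.20 ± 0.04 with the triple combination against untreated cells (adjusted p = 0.00231). Ccnd3 had 20.5, 20.4 and 19.9 TPM with the triple combination, 21, 22 and 22 TPM with IL-33 and IL-13, 20.9, 20.3 and 20.2 TPM with IL-33 and IL-17A, 21.8, 22 and 21.1 TPM with IL-33 and 21.7, 21.1 and 20.8 TPM in untreated cells. Its groups differed by at most 0.09 on the log2 scale, and no comparison passed the test.

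The E cyclins, partners of Cdk2 at the start of S phase, were higher with IL-13. Ccne1 had 53.9, 53.8 and 55.8 TPM with the triple combination, 54.4, 55.5 and 54.8 TPM with IL-33 and IL-13, 39.3, 39.5 and 42.1 TPM with IL-33 and IL-17A, 48.1, 43.5 and 45.7 TPM with IL-33 and 42.4, 41.2 and 46.3 TPM in untreated cells. The 6 libraries with IL-13 were all above the 9 without it, and those with IL-33 and IL-17A were below those with IL-33 alone. Ccne1 rose by 0.26 ± 0.05 with IL-13 on IL-33 (adjusted p = 0.00231) and by 0.43 ± 0.05 with IL-13 on IL-33 and IL-17A (adjusted p = 8.92e-05). Ccne2 had 16.2, 20.2 and 21.8 TPM with the triple combination, 17.5, 17.2 and 18.7 TPM with IL-33 and IL-13, 13, 11.4 and 12.9 TPM with IL-33 and IL-17A, 15.1, 15.3 and 18.1 TPM with IL-33 and 16.3, 14.4 and 17.7 TPM in untreated cells. It was lowest in the 3 libraries with IL-33 and IL-17A, where it was lower by 0.35 ± 0.11 than in untreated cells (adjusted p = 0.0231), and IL-13 on top of that pair raised it by 0.60 ± 0.11 (adjusted p = 0.00244). The value for Ccne2 with IL-13 added to IL-33 was 0.14 ± 0.11, with overlapping groups (adjusted p = 0.347).

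E2f1, an activator of S phase genes, was higher by 0.26 ± 0.07 with IL-33 and IL-13 than in untreated cells (adjusted p = 0.0105). E2f8, a late repressor of the same family, was lower by 0.41 ± 0.10 with IL-33 and IL-17A (adjusted p = 0.00561), and -0.01 ± 0.10 was its value with IL-33 and IL-13 (adjusted p = 0.914), both against untreated cells. Both were higher with IL-13 than with IL-17A as partner of IL-33, and they passed the test in different groups against untreated cells.

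Cdc6 and Cdt1 load the MCM helicase onto origins of replication. Cdc6 had 9.78, 9.69 and 11.6 TPM with the triple combination, 10.1, 9.78 and 11.7 TPM with IL-33 and IL-13, 6.33, 6.31 and 6.83 TPM with IL-33 and IL-17A, 7.58, 8.26 and 8.26 TPM with IL-33 and 8.49, 8.85 and 8.56 TPM in untreated cells. The 6 libraries with IL-13 were all above the other 9, and those with IL-33 and IL-17A were all below the rest. The contrast of IL-13 against IL-17A as partner of IL-33 was 0.62 ± 0.08 on the log2 scale (adjusted p = 0.000128). Cdt1 was lower by 0.21 ± 0.07 with IL-33 and IL-17A than in untreated cells (adjusted p = 0.0422), and its change with IL-13 added to IL-33 was 0.10 ± 0.07 (adjusted p = 0.307).

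Cdc45 and Gins2 complete the active helicase with the MCM ring. Cdc45 had 6.37, 7.74 and 8.12 TPM with the triple combination, 7.75, 6.33 and 7.2 TPM with IL-33 and IL-13, 5.71, 4.55 and 5.09 TPM with IL-33 and IL-17A, 4.14, 5.26 and 6.06 TPM with IL-33 and 4.31, 4.21 and 5.49 TPM in untreated cells. Libraries with IL-13 were all above those without it, at low levels that rest on 117 to 284 reads per library. Cdc45 rose by 0.40 ± 0.13 with IL-13 on IL-33 (adjusted p = 0.0346). Gins2 rose by 0.34 ± 0.09 in the same comparison (adjusted p = 0.0162).

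The 6 MCM genes encode the ring of the replicative helicase, and their order among groups was shared in part. Mcm5 had 30.5, 30.1 and 30.9 TPM with the triple combination, 37.7, 38.1 and 38.6 TPM with IL-33 and IL-13, 22.7, 26 and 28.1 TPM with IL-33 and IL-17A, 24.2, 27.4 and 26.7 TPM with IL-33 and 29.4, 27.4 and 29.8 TPM in untreated cells. Its 3 libraries with IL-33 and IL-13 stood above all others, and adding IL-17A to that pair gave lower values in all 3 libraries. Mcm5 rose by 0.53 ± 0.07 with IL-13 on IL-33 (adjusted p = 0.000137) and was lower by 0.31 ± 0.07 with IL-17A added to IL-33 and IL-13 (adjusted p = 0.0142).

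Mcm6 had 24.9, 30.1 and 28 TPM with the triple combination, 28.3, 28 and 30.9 TPM with IL-33 and IL-13, 22.3, 19 and 20.9 TPM with IL-33 and IL-17A, 25.7, 25 and 26.6 TPM with IL-33 and 30.9, 30.3 and 33 TPM in untreated cells. Here the untreated libraries were above those of IL-33, and those of IL-33 with IL-17A were the lowest of all. Mcm6 was lower by 0.58 ± 0.07 with IL-33 and IL-17A (adjusted p = 5.81e-05) and by 0.27 ± 0.07 with IL-33 alone (adjusted p = 0.0242), both against untreated cells, and was -0.11 ± 0.07 with IL-33 and IL-13 (adjusted p = 0.248). IL-13 against IL-17A as partner of IL-33 gave values from 0.36 ± 0.07 for Mcm2 to 0.56 ± 0.07 for Mcm5, and all 6 MCM genes passed the test there. Against untreated cells, Mcm3, Mcm5 and Mcm7 were higher with IL-33 and IL-13, by 0.20 ± 0.04, 0.39 ± 0.07 and 0.18 ± 0.07. With IL-33 and IL-17A, Mcm2, Mcm3, Mcm4, Mcm6 and Mcm7 were lower than in untreated cells in the fit to all libraries without the set term. Outside the set, where IL-33 with IL-17A has only replicate 1, their values were -0.15, -0.21, -0.15, -0.47 and -0.13 in this order. The results of these 5 falls with the set term are not given here.

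The genes of nucleotide supply showed the largest changes in S phase. Rrm2, the regulatory subunit of ribonucleotide reductase, had 259.6, 260 and 258 TPM with the triple combination, 262, 263 and 285 TPM with IL-33 and IL-13, 157, 181 and 170.1 TPM with IL-33 and IL-17A, 171, 174 and 168 TPM with IL-33 and 141, 148 and 135 TPM in untreated cells. The lowest of the 6 libraries with IL-13 was at 258 TPM and the highest of the other 9 at 181 TPM, with the 3 untreated libraries lowest. Rrm2 rose by 0.27 ± 0.05 with IL-33 alone against untreated cells (adjusted p = 0.00337) and by a further 0.65 ± 0.05 with IL-13 added (adjusted p = 3.14e-06). The change with IL-17A added to IL-33 was -0.01 ± 0.05 (adjusted p = 0.884). Rrm1, the catalytic subunit, did not follow: its change with IL-13 on IL-33 was 0.05 ± 0.09 (adjusted p = 0.69), and it was lower by 0.37 ± 0.09 with IL-33 and IL-17A than in untreated cells (adjusted p = 0.00547). With the set term, the IL-13 value of Rrm1 was 0.29, past the test. Outside the set, where IL-33 with IL-17A has only replicate 1, the Rrm1 value of that group against untreated cells was -0.20.

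Tyms, thymidylate synthase, had 31.7, 33.5 and 32.2 TPM with the triple combination, 31.7, 28.9 and 34.6 TPM with IL-33 and IL-13, 26.2, 20.9 and 26.1 TPM with IL-33 and IL-17A, 23.5, 21.5 and 26 TPM with IL-33 and 16.7, 17.9 and 20 TPM in untreated cells. The untreated libraries were the lowest, and the libraries with IL-13 were above all others. It rose by 0.36 ± 0.10 with IL-33 alone (adjusted p = 0.0281) and by 0.77 ± 0.10 with IL-33 and IL-13 (adjusted p = 5.42e-05), each against untreated cells. Tk1, the thymidine salvage kinase, had 33.4, 34.7 and 27.4 TPM with the triple combination, 41.8, 43.3 and 40.7 TPM with IL-33 and IL-13, 21.7, 26.7 and 29.9 TPM with IL-33 and IL-17A, 28.5, 24.9 and 26.9 TPM with IL-33 and 23.6, 28 and 21.8 TPM in untreated cells. It was highest in the 3 libraries with IL-33 and IL-13, and the triple combination overlapped both the libraries with IL-33 and those with IL-33 and IL-17A. Tk1 rose by 0.63 ± 0.12 with IL-13 on IL-33 (adjusted p = 0.00231), and the value with IL-17A added to IL-33 and IL-13 was -0.39 ± 0.12 (adjusted p = 0.0707). With the set term the IL-13 value of Tk1 was 0.39 and did not pass the test.

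Dut, which removes dUTP before it can be built into DNA, had 37.3, 37.7 and 37 TPM with the triple combination, 40.1, 39.7 and 39.6 TPM with IL-33 and IL-13, 23.6, 28.2 and 26.7 TPM with IL-33 and IL-17A, 27.1, 25.7 and 25 TPM with IL-33 and 25.7, 25.7 and 24.6 TPM in untreated cells. No library with IL-13 overlapped any library without it, and the 3 libraries with IL-33 alone overlapped the untreated ones. Dut rose by 0.60 ± 0.05 with IL-13 on IL-33 (adjusted p = 9.31e-06) and by 0.50 ± 0.05 on IL-33 and IL-17A (adjusted p = 6.1e-05), against 0.03 ± 0.05 for IL-33 alone (adjusted p = 0.753).

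**Figure D3:**
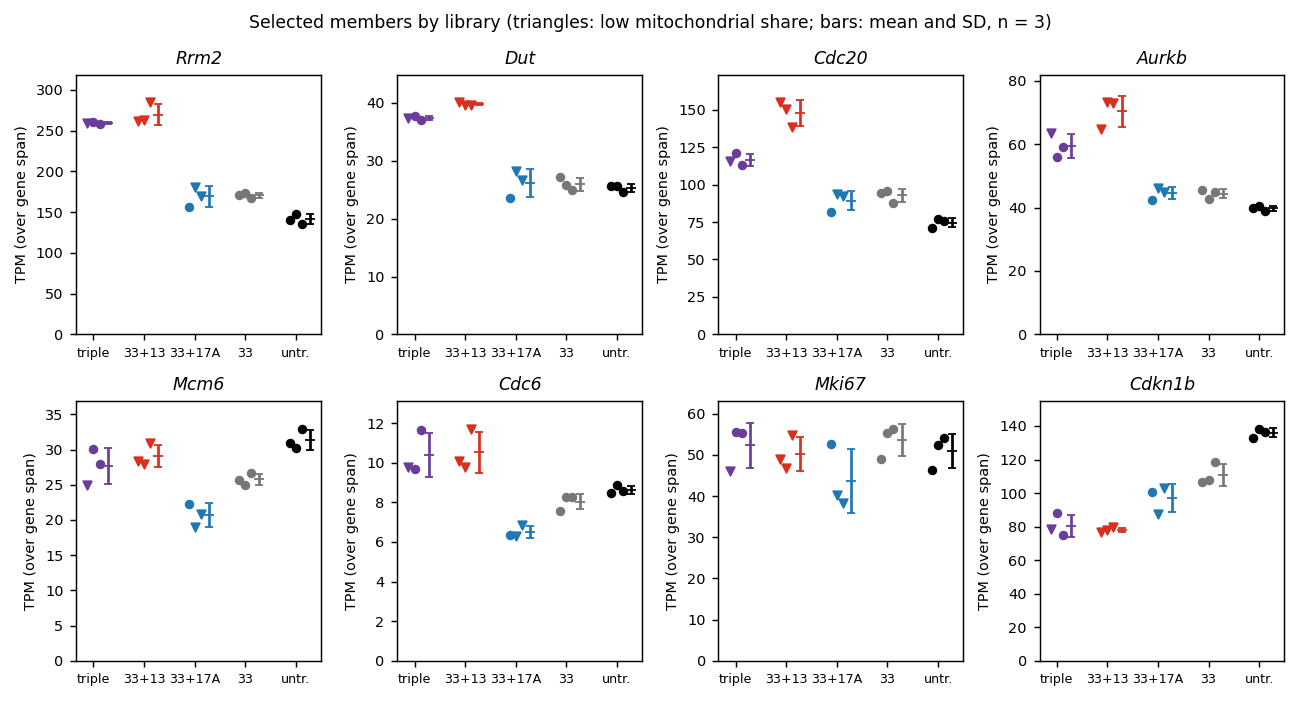
TPM over the gene span of 8 members in each library (points), with the mean and SD of the 3 libraries of each group (bars), for the triple combination, IL-33 with IL-13 (33+13), IL-33 with IL-17A (33+17A), IL-33 (33) and untreated cells (untr.). Downward triangles are libraries with a low mitochondrial share. Rrm2, Dut and Cdc6 were higher in all 6 libraries with IL-13, and Mki67 overlapped in all groups.

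The remaining S phase members act at the fork. Pcna, the sliding clamp, was lower by 0.17 ± 0.05 with IL-33 than in untreated cells (adjusted p = 0.035) and higher by 0.23 ± 0.05 with IL-13 added to IL-33 (adjusted p = 0.0038). Fen1, the flap endonuclease, rose by 0.43 ± 0.06 with IL-13 added to IL-33 (adjusted p = 0.000167) and was lower by 0.24 ± 0.06 with IL-17A added to IL-33 and IL-13 (adjusted p = 0.0202). Uhrf1, which carries DNA methylation through replication, rose by 0.30 ± 0.09 with IL-13 on IL-33 (adjusted p = 0.0216). Prim1, the primase, had 6.26 to 11.4 TPM over all libraries and passed no comparison in the fit to all libraries without the set term. Inside the set it was higher by 0.51 ± 0.09 with IL-13 than with IL-17A as partner of IL-33 (limma adjusted p = 0.0311). Outside the set it was higher by 0.41 ± 0.10 with the triple combination than in untreated cells (limma adjusted p = 0.0174). Pola1, the polymerase alpha catalytic subunit, fell under the filter because its 327389-base span lowers the TPM to between 0.571 and 0.883, although it had 187 to 318 reads per library. Fitted with no filter, Pola1 ranged over the pairwise comparisons up to 0.17 ± 0.06 (IL-13 against IL-17A as partner of IL-33, limma adjusted p = 0.109), and none passed.

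The cyclin and kinase that trigger mitosis rose in each cytokine group. Cdk1, the mitotic kinase, had 46, 47.2 and 46.6 TPM with the triple combination, 49.5, 48.7 and 49.3 TPM with IL-33 and IL-13, 33.3, 37 and 37.7 TPM with IL-33 and IL-17A, 35.7, 40.1 and 36.5 TPM with IL-33 and 30.9, 30.2 and 29.4 TPM in untreated cells. Untreated libraries were the lowest, the libraries with IL-33 or IL-33 and IL-17A lay between, and those with IL-13 were the highest. Cdk1 was higher than in untreated cells by 0.30 ± 0.05 with IL-33 (adjusted p = 0.00149), 0.24 ± 0.05 with IL-33 and IL-17A (adjusted p = 0.00281) and 0.69 ± 0.05 with IL-33 and IL-13 (adjusted p = 4.65e-07). Ccnb1, cyclin B1, had 74.6, 83.5 and 79.8 TPM with the triple combination, 82.6, 79.8 and 85.8 TPM with IL-33 and IL-13, 62, 62.3 and 62.4 TPM with IL-33 and IL-17A, 66.2, 64 and 76.7 TPM with IL-33 and 49.6, 52.5 and 52.1 TPM in untreated cells. The untreated libraries were below all others, and those with IL-33 and IL-13 were above those with IL-33 alone, while the triple combination overlapped both. The rise in Ccnb1 was 0.41 ± 0.06 with IL-33 alone (adjusted p = 0.000571), more than its further rise of 0.26 ± 0.06 with IL-13 added (adjusted p = 0.00768); the difference between these changes was not tested. Ccnb2, cyclin B2, rose by 0.25 ± 0.07 with IL-33 (adjusted p = 0.0259), while Ccna2, cyclin A2, gave 0.03 ± 0.12 (adjusted p = 0.914).

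Cdc20, which turns on the anaphase-promoting complex, had the highest change of all members when IL-13 was added to IL-33. It had 116, 121 and 113 TPM with the triple combination, 155, 150.2 and 138 TPM with IL-33 and IL-13, 82, 93.8 and 92 TPM with IL-33 and IL-17A, 94.5, 96 and 87.6 TPM with IL-33 and 71.2, 76.9 and 75.4 TPM in untreated cells. The 3 libraries with IL-33 and IL-13 were at least 138 TPM, those of the triple combination were between 113 and 121 TPM, and all other libraries were lower. Cdc20 rose by 0.67 ± 0.06 with IL-13 on IL-33 (adjusted p = 8.04e-06) and was lower by 0.34 ± 0.06 with IL-17A added to IL-33 and IL-13 (adjusted p = 0.00459). Ube2c, which works with it, had 82.5, 92.1 and 93 TPM with the triple combination, 84.5, 84.8 and 88.1 TPM with IL-33 and IL-13, 75.2, 55.8 and 57.2 TPM with IL-33 and IL-17A, 66.7, 64.9 and 80.8 TPM with IL-33 and 54.9, 57.4 and 66.9 TPM in untreated cells. It was higher in the groups with IL-13 than in untreated cells, by 0.57 ± 0.12 with the triple combination (adjusted p = 0.00161), and replicate 1 of IL-33 with IL-17A stood well above the other 2 of its group.

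The Aurora and Polo kinases order chromosome alignment and division. Aurkb had 63.5, 55.9 and 59 TPM with the triple combination, 64.8, 73.1 and 73 TPM with IL-33 and IL-13, 42.5, 46.2 and 44.9 TPM with IL-33 and IL-17A, 45.5, 42.7 and 44.8 TPM with IL-33 and 39.9, 40.5 and 38.9 TPM in untreated cells. All 6 libraries with IL-13 were above the other 9, and adding IL-17A to IL-33 and IL-13 gave lower values without overlap. Aurkb rose by 0.65 ± 0.06 with IL-13 on IL-33 (adjusted p = 7.05e-06) and was lower by 0.24 ± 0.06 with IL-17A on IL-33 and IL-13 (adjusted p = 0.0277). Aurka had 28.8, 34.8 and 34.7 TPM with the triple combination, 32.7, 33.4 and 33 TPM with IL-33 and IL-13, 26.2, 20 and 22 TPM with IL-33 and IL-17A, 24.7, 26.2 and 27.5 TPM with IL-33 and 20.1, 20.5 and 22.9 TPM in untreated cells. The libraries with IL-13 were again the highest, and Aurka rose by 0.33 ± 0.09 with IL-13 on IL-33 (adjusted p = 0.02). Plk1 had 51.4, 50.4 and 43.5 TPM with the triple combination, 56.6, 59.3 and 58.6 TPM with IL-33 and IL-13, 42.4, 42.5 and 40.4 TPM with IL-33 and IL-17A, 48, 45.6 and 44 TPM with IL-33 and 38.3, 36.4 and 34.8 TPM in untreated cells. Untreated libraries were all below the others, and Plk1 rose by 0.32 ± 0.06 with IL-33 alone (adjusted p = 0.00303).

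Bub1b, of the spindle checkpoint, had 7.78, 8.13 and 8.05 TPM with the triple combination, 9.38, 8.77 and 9.64 TPM with IL-33 and IL-13, 6.12, 6.5 and 6.77 TPM with IL-33 and IL-17A, 6.64, 6.15 and 6.85 TPM with IL-33 and 5.06, 6.09 and 5.93 TPM in untreated cells. The IL-33 and IL-13 libraries were the highest, followed by the triple combination, and the rise with IL-13 on IL-33 was 0.44 ± 0.07 (adjusted p = 0.000418). Bub1, its partner in the checkpoint, had 7.17 to 10.9 TPM over all libraries and passed no comparison in the fit to all libraries without the set term. Inside the set Bub1 was higher by 0.28 ± 0.05 with IL-13 than with IL-17A as partner of IL-33 (limma adjusted p = 0.0303). Bub1b rose by 0.42 with IL-13 on IL-33 in the fit with the set term, and the value for Bub1 was 0.30, which did not pass; the difference between the 2 genes was not tested.

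Birc5 (survivin), Prc1 and Anln act at the central spindle and the cleavage furrow. Birc5 had 50.6, 51.4 and 53.8 TPM with the triple combination, 51.5, 53.1 and 54.9 TPM with IL-33 and IL-13, 40.6, 31.5 and 32.4 TPM with IL-33 and IL-17A, 39.6, 45.4 and 46.7 TPM with IL-33 and 39, 37.9 and 42.6 TPM in untreated cells. Prc1 had 41.6, 47.7 and 46.2 TPM with the triple combination, 49.1, 47.6 and 50.6 TPM with IL-33 and IL-13, 37.9, 31.1 and 32.5 TPM with IL-33 and IL-17A, 40.8, 40 and 44.5 TPM with IL-33 and 33.4, 34.7 and 39 TPM in untreated cells. Anln had 18.7, 21.7 and 20.4 TPM with the triple combination, 22.3, 21.1 and 23.1 TPM with IL-33 and IL-13, 16.2, 13.6 and 13.2 TPM with IL-33 and IL-17A, 16.6, 17.6 and 20 TPM with IL-33 and 16.1, 17.3 and 19.3 TPM in untreated cells. For all 3 genes the libraries with IL-33 and IL-13 were above those of IL-33 alone, and replicates 2 and 3 of IL-33 with IL-17A were the lowest pair of all libraries. With IL-13 on IL-33 the rises were 0.27 ± 0.09, 0.23 ± 0.08 and 0.28 ± 0.09 (adjusted p = 0.0329, adjusted p = 0.0457 for Prc1 and adjusted p = 0.0337 for Anln). With IL-17A on IL-33 the falls were 0.33 ± 0.09, 0.30 ± 0.08 and 0.32 ± 0.09 in the same order of genes. These values were -0.20, -0.16 and -0.18 with the set term, and none of the 3 passed the test.

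The widely used proliferation marker Mki67 passed no comparison without the set term. Mki67, the gene of the Ki-67 antigen, had 46.1, 55.5 and 55.3 TPM with the triple combination, 48.9, 46.8 and 54.8 TPM with IL-33 and IL-13, 52.6, 40.3 and 38.2 TPM with IL-33 and IL-17A, 49.1, 55.3 and 56.3 TPM with IL-33 and 46.3, 52.3 and 54.2 TPM in untreated cells. All 5 groups overlapped, and its change was -0.09 ± 0.12 with IL-13 on IL-33 (adjusted p = 0.572) and -0.02 ± 0.12 with IL-33 and IL-13 against untreated cells (adjusted p = 0.892). Within IL-33 and IL-17A, replicate 1, outside the set of low mitochondrial share, was at 52.6 TPM and the other 2, inside it, at 40.3 and 38.2 TPM. Mki67 was lower by 0.34 inside the set (limma adjusted p = 0.019), and with the set term its change with IL-13 on IL-33 was 0.24 and did not pass, while IL-13 against IL-17A as partner of IL-33 gave 0.32 and passed. Top2a, which untangles replicated DNA, was higher by 0.28 ± 0.08 with IL-33 and IL-13 than in untreated cells (adjusted p = 0.0128). Cenpf and Nusap1, of the kinetochore and the spindle, likewise passed no comparison in the fit to all libraries without the set term. Inside the set Nusap1 was higher by 0.57 ± 0.06 with IL-13 than with IL-17A as partner of IL-33 (limma adjusted p = 0.00889).

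The motor proteins of the spindle, Kif11, Kif20a and Kif23, and the kinetochore motor Cenpe gave a mixed picture. Kif20a rose by 0.30 ± 0.09 with IL-33 against untreated cells (adjusted p = 0.0451) and Kif11 gave 0.02 ± 0.08 (adjusted p = 0.903). Kif11 was lower by 0.34 ± 0.08 with IL-17A on IL-33 (adjusted p = 0.0182), and with the set term the value was -0.20 and did not pass. Kif23 and Cenpe were higher by 0.38 ± 0.12 and 0.33 ± 0.12 with the triple combination against untreated cells (adjusted p = 0.0206 and adjusted p = 0.0381). Tpx2, a spindle assembly factor, was higher by 0.38 ± 0.07 with IL-13 than with IL-17A as partner of IL-33 (adjusted p = 0.00337).

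The 4 inhibitors did not move as one. Cdkn1b, which encodes p27, a CIP/KIP inhibitor of Cdk2 linked to quiescence, had 78.5, 87.8 and 74.8 TPM with the triple combination, 77.1, 77.7 and 79.5 TPM with IL-33 and IL-13, 101, 87.5 and 103 TPM with IL-33 and IL-17A, 106, 108 and 118 TPM with IL-33 and 133, 138 and 136 TPM in untreated cells. Every cytokine library was below every untreated one, and the libraries with IL-33 and IL-13 were the closest together. Cdkn1b fell by 0.29 ± 0.07 with IL-33 (adjusted p = 0.0122), 0.48 ± 0.07 with IL-33 and IL-17A (adjusted p = 0.000152), 0.79 ± 0.07 with IL-33 and IL-13 (adjusted p = 1.84e-06) and 0.75 ± 0.07 with the triple combination (adjusted p = 2.13e-06), each against untreated cells. IL-13 on IL-33 lowered it by 0.50 ± 0.07 (adjusted p = 0.000258).

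Cdkn1a, which encodes p21, had 621, 629 and 597 TPM with the triple combination, 626, 625 and 624 TPM with IL-33 and IL-13, 598, 619 and 620.5 TPM with IL-33 and IL-17A, 600, 588 and 577 TPM with IL-33 and 526, 509 and 497 TPM in untreated cells. All 12 cytokine libraries were above the 3 untreated ones and lay within a narrow range. The rises against untreated cells ran from 0.20 ± 0.03 with IL-33 (adjusted p = 0.000486) to 0.29 ± 0.03 with IL-33 and IL-13 (adjusted p = 8.25e-06). Cdkn2a, whose p16 and p19 products share exons and cannot be told apart here, had 21.8, 20.4 and 18.4 TPM with the triple combination, 25.1, 27 and 23.6 TPM with IL-33 and IL-13, 17.2, 22.3 and 22.6 TPM with IL-33 and IL-17A, 18.1, 19.1 and 17.8 TPM with IL-33 and 16.1, 18.4 and 19.9 TPM in untreated cells. It rose by 0.44 ± 0.10 with IL-13 on IL-33 (adjusted p = 0.0079), but it was also higher inside the set of low mitochondrial share, and with the set term the value was 0.17 and did not pass. Cdkn2b, which encodes p15, had 37, 32.8 and 34 TPM with the triple combination, 34.5, 33.5 and 35.2 TPM with IL-33 and IL-13, 35.1, 34 and 33.1 TPM with IL-33 and IL-17A, 37.1, 36.5 and 34.7 TPM with IL-33 and 37.3, 38.5 and 38.6 TPM in untreated cells. Its falls against untreated cells were small, 0.16 ± 0.05 with IL-33 and IL-17A (adjusted p = 0.0184) and 0.14 ± 0.05 with IL-33 and IL-13 (adjusted p = 0.0209). The median changes of all genes were -0.09 and -0.12 in these comparisons. With voom on recovered reads 1 inhibitor was lower in each of them, where limma called 2.

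IL-33 alone raised mitotic genes and left most G1/S genes in place. Against untreated cells, 9 of 53 members rose and 3 fell (limma, adjusted p under 0.05), where 5.92% of all 13887 tested genes rose and 8.28% fell. Of 23 G2/M members 6 rose (Ccnb1, Plk1, Cdc20, Cdk1, Kif20a and Ccnb2), with a median change of 0.16 over the phase on the log2 scale and of -0.05 over all genes. Of 17 G1/S members 1 fell, Mcm6, with a median of -0.04, and of 9 S members Rrm2 and Tyms rose and Pcna fell. With libraries scaled by the median ratio of all genes, 12 members rose and 2 fell, where 1083 of 13864 genes rose and 875 fell. Without replicate 1 of IL-33, 6 members passed the test, where 10.3% of all genes did. Without replicate 1 of the untreated cells 7 members passed, where 11.6% of all genes did.

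IL-13 added to IL-33 raised members of every phase. Here 28 of 53 members rose and 2 fell, where 10% of all genes rose and 22.4% fell. The rises covered 9 of 17 G1/S, 7 of 9 S and 10 of 23 G2/M members, with medians of 0.21, 0.41 and 0.21 on the log2 scale, against -0.08 over all genes. Cdc20, Rrm2, Aurkb, Tk1 and Dut rose most, by 0.60 to 0.67, and Ccnd2 and Cdkn1b were the 2 that fell. With the set term 29 rose and 1 fell, of which 19 were among the 30 above. The rises were then 6 of 17 G1/S, 7 of 9 S and 16 of 23 G2/M members. The shares of all genes with the set term are not given here, so these counts cannot be set against 10% and 22.4%.

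IL-13 on top of IL-33 and IL-17A gave 34 members that rose and 1, Cdkn1b, that fell, where 6.7% of all genes rose and 9.14% fell. The rises were 12 of 17 G1/S members, 6 of 9 S members and 16 of 23 G2/M members, with medians of 0.30, 0.34 and 0.37. All 23 G2/M members had positive values, from 0.15 for Cenpf to 0.57 for Birc5. Both groups of this comparison have libraries on each side of the set: 13 members rose in the fit to libraries outside it and 12 rose in the fit to those inside it, and none fell in either. Outside the set IL-33 with IL-17A has 1 library, and inside it the triple combination has 1, so each of these fits assumes that the lone library varies like the other groups. The fit with the set term had 33 that rose and 2 that fell. Without replicate 2 of IL-33 with IL-17A, 23 members passed, and without replicate 2 of the triple combination 22. Shares of all genes outside the set, inside it, with the set term and without these replicates are not given here. Counts from those fits therefore cannot be set against 6.7% and 9.14%.

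**Figure D4:**
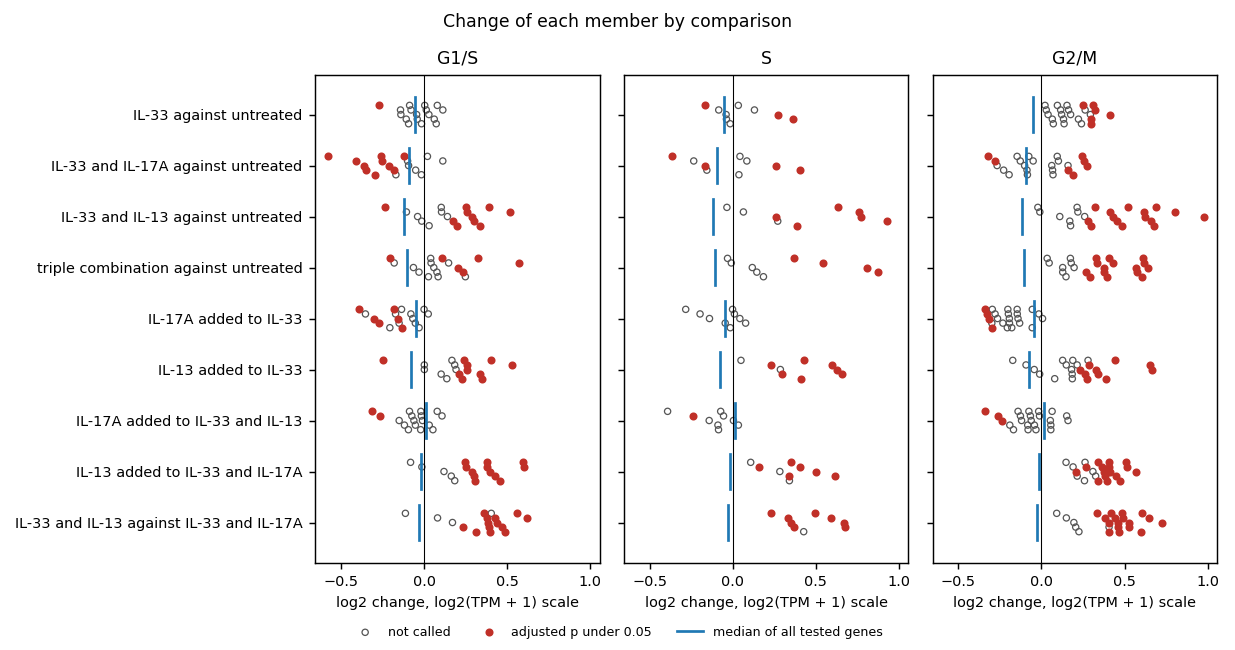
Change of each G1/S, S and G2/M member in the 9 pairwise comparisons, as the log2 difference on the log2(TPM + 1) scale (points; filled red where the adjusted p was under 0.05), with the median of all tested genes (blue line). With IL-13 on top of IL-33 and IL-17A all 23 G2/M members lay to the right of 0, and with IL-17A added to IL-33 no member passed the test to the right of 0.

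Members of G1/S and mitosis were lower with IL-17A added to IL-33, in a count that turned on single libraries. Of 53 members 10 fell and 0 rose in limma at an adjusted p under 0.05, where 6.22% of all genes fell and 3.54% rose. At an unadjusted p under 0.05, 26 members fell and 0 rose, and with voom on recovered reads 8 fell and 0 rose. The shares of all genes at these other settings are not given here, so these counts cannot be set against 6.22%. The 10 were Ccnd1, Ccne1, E2f8, Cdc6, Mcm3 and Mcm6 of G1/S and Kif11, Birc5, Prc1 and Anln of G2/M, and the medians were -0.15 in G1/S and -0.20 in G2/M, against -0.05 over all genes. With the set term only Ccnd1 passed, lower by 0.21, and in the libraries outside the set, where IL-33 with IL-17A has only replicate 1, no member passed. The count was 1 without replicate 3 of IL-33, without replicate 2 of IL-33 with IL-17A or without its replicate 3, 2 without replicate 2 of IL-33, 4 without replicate 1 of IL-33, and 23 without replicate 1 of IL-33 with IL-17A.

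IL-17A added to IL-33 and IL-13 lowered 6 members, Ccnd1, Mcm5, Fen1, Cdc20, Aurkb and Plk1, and raised 0 in limma, where 4.05% of all genes fell and 3.4% rose. The falls of these 6 were 0.24 to 0.34 on the log2 scale. At an unadjusted p under 0.05, 12 members were lower and 0 higher, and with voom 10 were lower and 0 higher. The shares of all genes at these other settings are not given here. With the set term 3 passed, Ccnd1, Cdc20 and Tpx2, all lower, and in the libraries inside the set, where the triple combination has only replicate 1, 0 passed. The count was 2 without replicate 2 or without replicate 3 of IL-33 with IL-13, and 3 without replicate 2 of the triple combination.

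A direct comparison of the 2 partners of IL-33 gave the largest count. With IL-13 as partner 38 of 53 members were higher and 1, Cdkn1b, was lower than with IL-17A as partner, where 7.54% of all genes were higher and 9.3% lower. These were 13 of 17 G1/S, 8 of 9 S and 17 of 23 G2/M members, with medians of 0.39, 0.43 and 0.44 on the log2 scale, against -0.03 over all genes. The most different were Cdc20 (0.72 ± 0.06), Tk1 (0.68 ± 0.12), Rrm2 (0.67 ± 0.05), Aurkb (0.64 ± 0.06) and Cdc6 (0.62 ± 0.08). Fitted to the libraries inside the set, with replicate 1 of IL-33 and IL-17A left out, 40 members were higher and none lower, and 36 of these were among the 39 above. The shares of all genes inside the set are not given here, so this count cannot be set against 7.54% and 9.3%.

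Against untreated cells, IL-33 with IL-17A gave 8 members higher and 16 lower, where 10.7% of all genes were higher and 27% lower. The 16 included 10 of 17 G1/S members, such as Mcm6, E2f8, Cdc6 and Ccne2, whereas Rrm2, Tyms, Cdk1, Ccnb1, Cdc20, Aurkb, Plk1 and Cdkn1a were higher. Median-ratio scaling gave 10 higher and 8 lower, and voom on recovered reads also gave 10 higher and 8 lower, with 4 of the lower in G1/S. With the set term 6 were higher and 8 lower, in the libraries outside the set, with 1 library of IL-33 with IL-17A, 2 were higher and 4 lower, and without replicate 2 of IL-33 with IL-17A 15 members passed. IL-33 with IL-13 gave 32 higher and 3 lower, where 14.5% of all genes were higher and 35.1% lower, and the triple combination gave 25 higher and 3 lower, where 12.6% were higher and 30.1% lower. In both, 15 of 23 G2/M members were higher and Cdkn1b, Cdkn2b and Ccnd2 were the 3 lower. With median-ratio scaling, which moved the median of all genes from -0.12 to 0.0048 for IL-33 with IL-13 and from -0.10 to 0.0061 for the triple combination, these counts were 43 higher and 2 lower, and 37 higher and 1 lower. They were, with the set term, 35 higher and 1 lower for IL-33 with IL-13 and 31 higher and 3 lower for the triple combination. These comparisons share the untreated libraries. Shares of all genes are not given here for median-ratio scaling, voom or the set term. The same holds outside the set and without replicate 2 of IL-33 with IL-17A. Counts from these fits therefore cannot be set against the shares above.

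**Figure D5:**
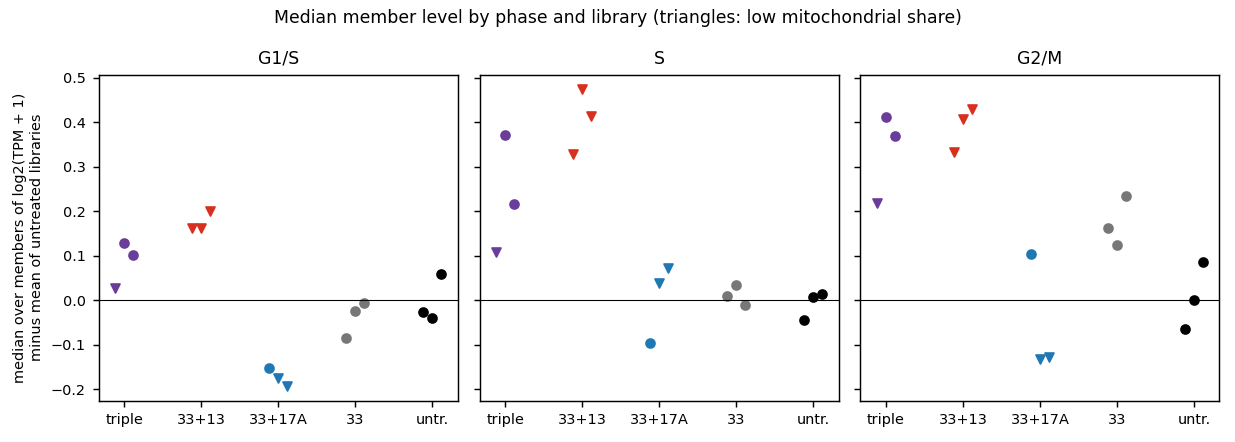
Median over the members of each phase of log2(TPM + 1) minus the mean of the untreated libraries, for each library (points), by group: triple combination, IL-33 with IL-13 (33+13), IL-33 with IL-17A (33+17A), IL-33 (33) and untreated cells (untr.). Downward triangles are libraries with a low mitochondrial share. Replicates 2 and 3 of IL-33 with IL-17A lay at -0.13 for G2/M, and replicate 1 at 0.10.

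The libraries of a group also varied among themselves. In G2/M their median level relative to untreated cells was 0.22 to 0.41 with the triple combination, 0.33 to 0.43 with IL-33 and IL-13, -0.13 to 0.10 with IL-33 and IL-17A, 0.13 to 0.23 with IL-33, and -0.06 to 0.09 in untreated cells. For G1/S the range was 0.03 to 0.13 with the triple combination, 0.16 to 0.20 with IL-33 and IL-13, -0.19 to -0.15 with IL-33 and IL-17A, -0.09 to -0.01 with IL-33, and -0.04 to 0.06 in untreated cells. For S the range was 0.11 to 0.37 with the triple combination, 0.33 to 0.47 with IL-33 and IL-13, -0.10 to 0.07 with IL-33 and IL-17A, -0.01 to 0.03 with IL-33, and -0.04 to 0.01 in untreated cells. The G1/S levels of IL-33 with IL-17A thus lay below those of every other group in all 3 libraries, whereas the G2/M level of its replicate 1 was above those of its replicates 2 and 3.

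Whether IL-13 and IL-17A acted on each other's effect was tested by their interaction under IL-33. Of 53 members 0 passed in limma, where 0.158% of all genes were higher than the sum of both effects and 0.18% lower. At an unadjusted p under 0.05 there were 15 of 53 members, 10 positive and 5 negative, beside 27% of all genes. With voom on recovered reads 4 members were called, all negative, and the share of all genes there is not given here. The lowest adjusted p was adjusted p = 0.0769 for Fen1 (-0.32 ± 0.08), which was thus not shown to differ. In the fit with the set term 0 members passed. The count was 14 without replicate 1 of IL-33 with IL-17A, where 21.9% of all genes passed, and 8 without replicate 1 of the triple combination, where 16.4% did, so the members' shares were near those of all genes.

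Other genes of the same processes, on lists chosen like the members with earlier results known, were read in the same fit. Of 42 other replication and repair genes, 12 rose and 0 fell with IL-13 added to IL-33, where 10% of all genes rose and 22.4% fell, with a median of 0.20 on the log2 scale. In IL-13 against IL-17A as partner of IL-33, 20 of the 42 were higher and 0 lower, where 7.54% of all genes were higher. With IL-33 alone 2 of 42 fell, where 8.28% of all genes did, Rpa1 (-0.31 ± 0.04), which coats single-stranded DNA, and Rfc1 (-0.26 ± 0.07), of the clamp loader, and with IL-17A added to IL-33 Pole (-0.30 ± 0.09), the leading-strand polymerase, was among the 3 of 42 that fell, where 6.22% of all genes did.

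Of 55 other mitosis genes, 23 rose and 0 fell with IL-13 added to IL-33, where 10% of all genes rose, with a median of 0.21 on the log2 scale. Cdca5 (0.64 ± 0.07), which keeps sister chromatids together, and the spindle motor Kifc1 (0.60 ± 0.12) rose most. With IL-13 against IL-17A as partner of IL-33, 42 of the 55 were higher and 0 lower, where 7.54% of all genes were higher. With IL-33 alone 5 of 55 rose, where 5.92% of all genes did, led by Ckap2 (0.46 ± 0.10) and Kif18b (0.35 ± 0.08), both of spindle microtubules. With IL-17A added to IL-33, 6 of 55 fell, where 6.22% of all genes did, led by the kinetochore gene Spc24 (-0.43 ± 0.12) and the spindle pole gene Aspm (-0.40 ± 0.09).

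Of 22 other G1/S regulators, 4 rose and 4 fell with IL-13 added to IL-33, where 10% of all genes rose and 22.4% fell. The INK4 inhibitors Cdkn2d (0.73 ± 0.17) and Cdkn2c (0.44 ± 0.09) rose most, and the retinoblastoma family genes Rb1 (-0.43 ± 0.11) and Rbl2 (-0.38 ± 0.10) fell most. With IL-33 alone the transcription factor Myc (0.33 ± 0.08) and the phosphatase Cdc25a (0.25 ± 0.06), which activates Cdk2, were among 3 that rose, and the E2F partner Tfdp2 (-0.36 ± 0.08) and the repressor E2f6 (-0.30 ± 0.07) were the 2 that fell, where 5.92% of all genes rose and 8.28% fell. With IL-17A added to IL-33, Cdk6 (-0.31 ± 0.08) and E2f6 (-0.28 ± 0.07) led the 4 that fell, where 6.22% of all genes fell.

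Beside the rise of Cdkn1a with every cytokine group, 20 other p53 target genes were read. With IL-33 alone 1 rose, the death receptor gene Fas (0.44 ± 0.09), and 2 fell, Pmaip1 (-0.29 ± 0.06) and Sesn1 (-0.23 ± 0.05), where 5.92% of all genes rose and 8.28% fell. With IL-13 added to IL-33, 4 rose, led by Aen (0.32 ± 0.07) and the apoptosis gene Bax (0.32 ± 0.07), and 3 fell, led by Rrm2b (-0.43 ± 0.07), the p53-inducible ribonucleotide reductase subunit, and Trp53inp1 (-0.41 ± 0.08), where 10% of all genes rose and 22.4% fell. Rrm2b and Rrm2 thus went opposite ways in that comparison. With IL-17A added to IL-33, Eda2r (-0.28 ± 0.07) and Zmat3 (-0.24 ± 0.06) led the 3 that fell, where 6.22% of all genes fell.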

How the data were processed

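RNA was sequenced, and the submitters' processing notes name HISAT2 and the mm10 build, with no version. No source used here gives the counting tool, the strand setting or the treatment of multi-mapping reads. Per the file headers and values, the authors deposited TPM, reads divided by gene span and scaled per library. The span-weighted values were whole multiples of 1 step for 86.6% to 89.1% of values per library (tolerance 0.05), which gave the reads.

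The 13887 of 18078 genes with a level of 1 TPM or above in 3 or more libraries were tested with limma 3.58.1 (R 4.3.3; trend and robust options) on log2(TPM + 1), which understates changes of low genes. The fit held all 15 libraries with 1 mean per group, and p-values were adjusted by Benjamini-Hochberg over all tested genes. Errors of log2 differences are SE. Replicates were numbered in accession order. The fit was tested on simulated data.

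Members, lists and tests were chosen with earlier results of these data known. Values in every library are given for members that passed a test with a log2 change of at least 0.5 in size, the D cyclins and the inhibitors. Of each other list, up to 2 genes per direction with the largest called change are named in 3 comparisons; the replication and repair genes that this rule gives for IL-13 added to IL-33 are not reported here. Voom on recovered reads and the fit inside the set of low mitochondrial share were chosen after seeing the data. The set was split at a gap in the mitochondrial share (13 genes).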

Additional observations from a re-analysis of the deposited data

How the results depend on the processing

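No called member changed sign under any alternative: of 3255 gene values recomputed, 2731 kept the call and 524 lost it. The numbers of members called were within 1.5 times of those reported under another pseudocount (0.1), no filter, a 5 TPM filter and plain limma in all 10 comparisons. The other fits moved these counts. They moved the share of all genes called as well, which ran from 10.3% to 19.3% over the fits of IL-33 against untreated cells. With IL-17A added to IL-33, 10 became 6 with median-ratio scaling, 0 when fitted to the compared groups only, 1 with the set term and 0 outside the set. With IL-17A added to IL-33 and IL-13, 6 became 3 in the compared groups only, 3 with the set term, 0 inside the set and 10 with voom. With IL-13 added to IL-33 and IL-17A, 35 became 12 in the compared groups only, 13 outside the set and 12 inside it. With IL-33 and IL-17A against untreated cells, 24 became 14 with the set term and 6 outside the set. The interaction count of 0 became 4 with voom. Fits to fewer groups or libraries have fewer residual degrees of freedom; beyond that the cause was not tested. Leaving out 1 library at a time gave 6 to 10 members for IL-33 against untreated cells, 15 to 30 for IL-33 and IL-17A, 31 to 34 for IL-33 and IL-13 and 22 to 29 for the triple combination, each against untreated cells. It gave 1 to 23 for IL-17A added to IL-33, 23 to 29 for IL-13 added to IL-33, 2 to 6 for IL-17A added to IL-33 and IL-13, 22 to 37 for IL-13 added to IL-33 and IL-17A, 32 to 39 for IL-33 and IL-13 against IL-33 and IL-17A, and 0 to 14 for the interaction. No paired analysis was possible because replicate numbers were given in accession order. Depth limits low members such as Prim1 and Cdc6, whose lowest counts in a library were 98 and 105 reads.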
